A study of Mus musculus with 6 samples.

Results

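Heme synthesis enzymes were followed here in the liver of mice with long-term high blood lipids. The genes were chosen by symbol, as the annotation of the array features gives it: Alas1, Alas2, Alad, Uros, Urod, Cpox, Ppox and Fech. These 8 genes stand among 17180 genes with a value in all 3 treated pools on at least 1 array type. All 8 had such values on the oligonucleotide array and 5 of the 8 on the cDNA array.

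The treated group was 12 female C57BL/6 mice, 7 weeks old at the start and fed chow with 4.4% fat, which received 0.5 g/kg of the surfactant copolymer P-407 into the abdomen every 3 days. P-407 raises blood lipids, and the livers date from day 96. The treated RNA formed 3 pools, and RNA of 4 mice given saline formed 1 control pool. The sources used here do not say how mice were assigned to pools. Each of the 6 arrays set 1 treated pool, in Cy5, against that control pool, in Cy3, and each pool was read on 1 oligonucleotide and 1 cDNA array.

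Each value is a log2 ratio of a treated pool to the control pool, so a negative value means less of that RNA after P-407. The files hold no intensities, so signal over background and the level of a gene are unknown, and the tissue could not be checked by its markers' levels. Each ratio rests on the single control pool and on 1 dye orientation, so the spread between control mice is not in any test, and a dye effect of a gene and an effect of treatment cannot be told apart. Fewer cells of a type and less RNA per cell cannot be told apart either. A p-value here measures the spread between the 3 treated pools.

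Heme is made in a fixed chain of steps that starts and ends in the mitochondrion. Aminolevulinate synthase joins glycine and succinyl-CoA in the first and rate-limiting step. Alas1 encodes its form found in all tissues, which in liver is repressed by heme and induced when cytochrome P450 enzymes are made, and Alas2 encodes the form of red cell precursors, whose translation is controlled by iron. The later enzymes build the porphyrin ring, and ferrochelatase, encoded by Fech, inserts the iron.

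The stretches upstream of Alas1 and Alas2 are shown because the isozymes went opposite ways on the oligonucleotide array. Each is the 250 bases before the most upstream start in RefSeq's annotation of GRCm38.p6, 5′ to 3′ on the gene's own strand. Alas1 (gene ID 11655) lies at chr9:106233455-106247954 on the minus strand, and its upstream stretch at chr9:106247955-106248204. Alas2 (gene ID 11656) lies at chrX:150547417-150570622 on the plus strand, and its upstream stretch at chrX:150547167-150547416. Capitals mark matches, on either strand, to GATAA (the core bound by GATA factors of red cell precursors), CACCC (the core bound by Klf1 and its relatives) and GGGCGG (a GC box).
Alas1: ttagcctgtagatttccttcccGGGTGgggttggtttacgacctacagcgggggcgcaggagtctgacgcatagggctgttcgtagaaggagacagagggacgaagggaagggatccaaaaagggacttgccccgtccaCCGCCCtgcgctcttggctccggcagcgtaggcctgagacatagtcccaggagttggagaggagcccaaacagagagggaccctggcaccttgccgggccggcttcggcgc
Alas2: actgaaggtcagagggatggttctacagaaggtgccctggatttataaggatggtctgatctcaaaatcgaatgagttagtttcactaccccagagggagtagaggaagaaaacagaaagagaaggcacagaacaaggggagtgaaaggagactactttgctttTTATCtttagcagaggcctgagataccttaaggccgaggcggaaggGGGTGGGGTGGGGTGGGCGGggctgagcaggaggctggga

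The stretch of Alas1 held no GATAA, 1 CACCC, read as GGGTG at position -228 from the start, and 1 GC box, read as CCGCCC at -111. The stretch of Alas2 held 1 GATAA, read as TTATC at -86, and CACCC 3 times, read as GGGTG at -40, -35 and -30. Its GC box at -26 overlapped the last of these. Of all 27025 promoters of the same length, 23.0% held GATAA, 51.3% held CACCC and 33.0% held GGGCGG on either strand, so each match is common. These matches describe the letters and show no binding.

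A sequence was found for 7 of the 8 genes. Cpox held 1 GATAA and 4 CACCC, and Alad, Uros, Urod and Ppox held neither. CACGTG, the E-box bound by clock factors among others, stood once in Alad, Uros and Urod, and in 6.04% of all promoters. TGACG, part of the cAMP response element, was in 17.8% of promoters and in Alas1, Alad, Uros, Cpox and Ppox. GGTCA, the core of a nuclear receptor site, was in 34.9% and in Alas2, Uros and Urod. TGTTTAC, a forkhead motif, was in 3.06% and in none of the 7. GCATGCG, the core of the site of Nrf1, a regulator of genes for mitochondrial proteins, was in 3.06% of these windows and in none of the 7. It was found in Alas1 once the window was carried to 50 bases past the start, where 3.65% of windows held it. The wider window was used for this motif alone, after the first window held no match. The match therefore describes the letters only and is no evidence of regulation by Nrf1. The match begins at base 32 after the start, in capitals at chr9:106247907-106247933 on the minus strand. Its letters also read as a match on the other strand.
Alas1 after the start: cacccaaggcGCATGCGcggcggtcac

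Alas1 was the heme synthesis gene with the largest change. Its log2 ratio on the oligonucleotide array was -1.10 in pool 1, -1.0 in pool 2 and -0.94 in pool 3. All 3 pools were low, near one another and below every value of the other 7 genes. The mean was -1.01 ± 0.08 (SD, n = 3, 95% interval -1.13 to -0.90), so Alas1 RNA was 2.02-fold lower in treated livers (limma, adjusted p = 0.000244). The fold would be 2.75 if the deposited values were natural logs. Only 40 of 16871 genes had a lower ratio.

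Alas2 went the other way. Its log2 ratios were 0.56, 0.38 and 0.37 in pools 1, 2 and 3, all above the values of the other 7 genes, with pool 1 the highest. The mean was 0.44 ± 0.11 (SD, n = 3, 95% interval 0.31 to 0.57), a 1.36-fold higher RNA ratio (limma, adjusted p = 0.00225). Such a distance from 0 was less rare than that of Alas1: 7.5% of all genes lay as far from 0 as Alas2, against 0.901% for Alas1.

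Within an array the ratio of Alas1 minus that of Alas2 was -1.66 in pool 1, -1.38 in pool 2 and -1.31 in pool 3. Every pool was below 0 by a margin many times their spread. The mean difference of -1.45 ± 0.18 (SD, n = 3) is a 2.73-fold difference between the responses of both genes, not between their levels. An exact two-sided sign-flip permutation test gave p = 0.25, the smallest that 3 pools allow. Alas1 lay below each of the other 6 genes in all 3 pools as well, by mean log2 differences between -1.11 for Cpox and -0.77 for Alad. Each of those comparisons has the same smallest exact permutation p of 0.25.

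**Figure D1:**
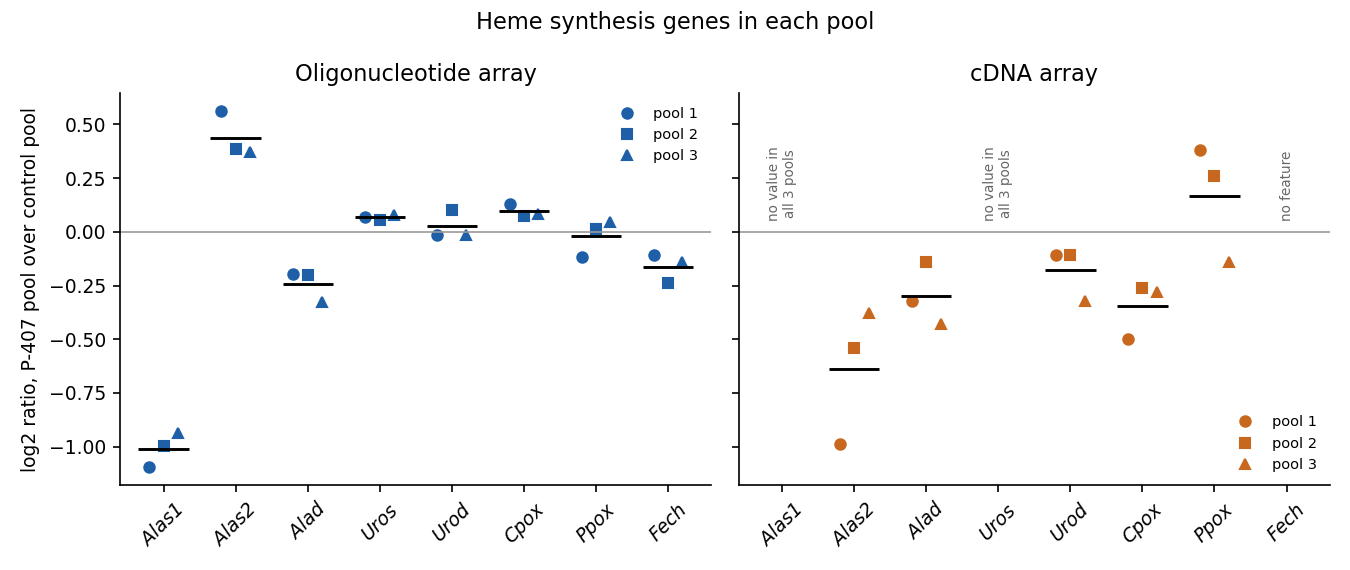
Log2 ratio of each P-407 pool over the control pool for the 8 genes in the order of the pathway, on the oligonucleotide array (left) and the cDNA array (right); points are pools and bars their means. On the left Alas1 lies near -1.01 and Alas2 near 0.44 with the rest close to 0, while on the right Alas2 is below 0 in all 3 pools.

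Alad, which joins aminolevulinate molecules into porphobilinogen, was lower on the oligonucleotide array. Its log2 ratios were -0.20, -0.20 and -0.33, with pool 3 the lowest. The mean was -0.24 ± 0.07 (SD, n = 3), or 1.18-fold lower (limma, adjusted p = 0.00922). A distance of this size was common, as 24.9% of all genes lay as far from 0.

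Fech, at the end of the pathway, had log2 ratios of -0.11, -0.24 and -0.14. All 3 were below 0, and their range overlapped that of Alad and that of Ppox. The mean of -0.16 ± 0.07 (SD, n = 3), 1.12-fold lower, passed the test narrowly (limma, adjusted p = 0.0319), and 41.4% of genes lay as far from 0. The call was lost without any 1 of the pools, with limma adjusted p = 0.0874, 0.126 and 0.0635 without pools 1, 2 and 3.

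The middle of the pathway did not pass the test. Uros, which closes the porphyrin ring, had log2 ratios of 0.07, 0.05 and 0.08 (limma, adjusted p = 0.208, 95% interval -0.03 to 0.16). Cpox, the mitochondrial oxidase of coproporphyrinogen, had 0.13, 0.07 and 0.08 (limma, adjusted p = 0.105, 95% interval -0.004 to 0.19). Both were above 0 in every pool, and their pools overlapped.

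Urod, which removes the side chains' carboxyl groups, had log2 ratios of -0.01, 0.10 and -0.02 (limma, adjusted p = 0.681, 95% interval -0.09 to 0.14). Ppox, which oxidises the ring before iron is inserted, had -0.11, 0.01 and 0.04 (limma, adjusted p = 0.771, 95% interval -0.14 to 0.10). Neither kept 1 sign over the pools. The intervals of these 4 genes end within 0.19 of 0 and do not show that their RNA was unaltered.

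As a group, 4 of the 8 genes passed the threshold of an adjusted p of 0.05, 3 lower and 1 higher, where 43.4% of all genes did, 22.0% higher and 21.4% lower. The share of members called was thus near the background. Likewise 6 of 8 had 1 sign in all pools, against 69.2% of genes. The median of the 8 means was 0.0029, and that of all genes 0.0027. The size of the change of Alas1 was less usual: 41 of all genes, or 0.243%, were both called and at least 2-fold lower. Without sharing of variance between genes in limma, none of the 8 was called, and 40 of all genes were called in place of 7318. The 4 genes called before then had limma adjusted p between 0.0682 for Alas1 and 0.142 for Fech.

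Ordered from low to high, the means ran Alas1, Alad, Fech, Ppox, Urod, Uros, Cpox and Alas2. Only the steps from Alas1 to Alad, of 0.77, and from Cpox to Alas2, of 0.34, separated neighbours whose pools did not overlap. The SD over pools ran from 0.014 for Uros to 0.11 for Alas2, with a median of 0.071 against 0.077 over all genes. Chemosensory receptor genes, most of which are not known from liver, give a rough background for these ratios. On the same arrays 311 of 862, or 36.1%, were called, and the farthest lay 2.08 from 0. Of these receptor genes 0.348% lay as far from 0 as Alas1, 3.94% as far as Alas2, 20.4% as far as Alad and 35.5% as far as Fech.

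**Figure D2:**
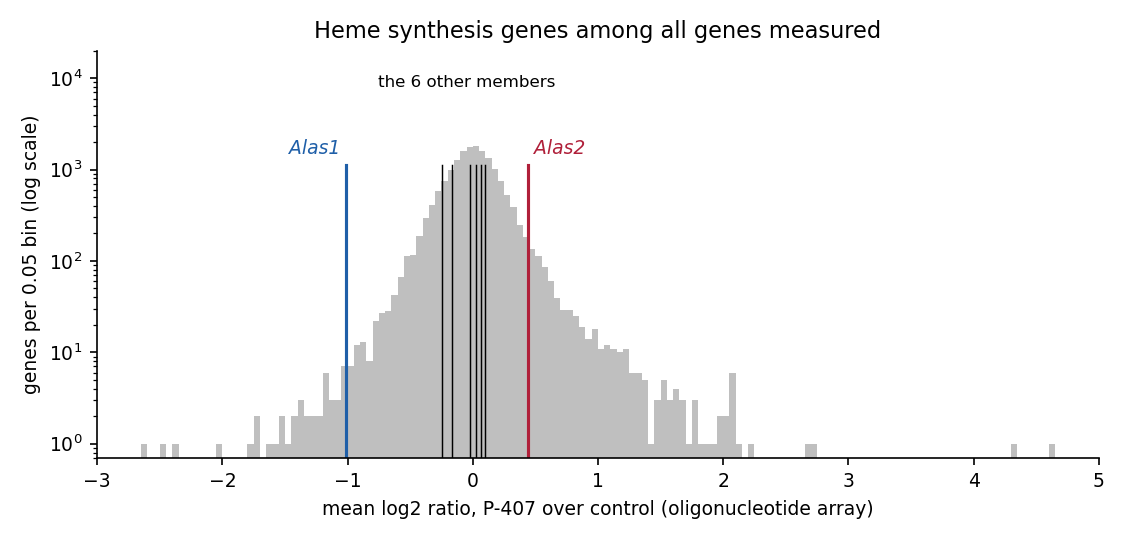
Histogram of the mean log2 ratio of all 16871 genes on the oligonucleotide array (grey, log scale of counts), with vertical lines at the 8 heme synthesis genes. Alas1 at -1.01 stands in the low tail, Alas2 at 0.44 on the high shoulder, and the other 6 lie in the centre between -0.24 and 0.095.

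The cDNA array asked the same question of the same RNA with other probes and direct labelling of 10 ug of RNA, where the oligonucleotide array used 0.5 ug amplified first. Fech had no feature there, and the feature of Alas1 was at 0 in all 3 pools and was taken as not measured. Uros had a value in every pool on neither of its 2 features: 1 gave -0.34 in pool 1 and -0.42 in pool 3, and the other -0.23 in pool 3 alone. The contrast of Alas1 with Alas2 therefore exists on the oligonucleotide array only.

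Alas2 was lower on the cDNA array. Its log2 ratios were -0.99, -0.54 and -0.38 in pools 1, 2 and 3. All 3 were below 0, and pool 1, the highest on the oligonucleotide array, was here the lowest. The mean of -0.64 ± 0.32 (SD, n = 3, 95% interval -1.15 to -0.13) did not pass the test (limma, adjusted p = 0.13).

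Alad had log2 ratios of -0.32, -0.14 and -0.43 on the cDNA array, a mean of -0.30 ± 0.15 (SD, n = 3; limma, adjusted p = 0.213). Each pool had the direction that it had on the oligonucleotide array, at a similar size and with a wider spread. Cpox had -0.50, -0.26 and -0.28, a mean of -0.35 ± 0.13 (SD, n = 3; limma, adjusted p = 0.177). Its pools were all below 0, where they were all above 0 on the oligonucleotide array.

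Urod had -0.11, -0.11 and -0.32 (limma, adjusted p = 0.375), all below 0. Ppox had 0.38, 0.26 and -0.14 (limma, adjusted p = 0.508), with pool 3 apart from the others in sign. Of the 5 genes 4 had 1 sign in all pools, against 57.4% of all genes. None of the 5 genes was called, where limma called 0 of 5011 genes, 0.00%. At an unadjusted p of 0.05 limma gave 1 of the 5, Alas2, beside 30.3% of all genes. The median SD of the 5 genes was 0.146 log2 units here, against 0.317 for all genes of this array type.

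Averaging both arrays of a pool left none of the 5 genes past the threshold, where 5.10% of 4702 genes were called. At an unadjusted p of 0.05 limma gave 1 of the 5, Alad, beside 36.3% of all genes. Alad was at -0.26, -0.17 and -0.38 in the 3 pools, a mean log2 ratio of -0.27 ± 0.10 (SD, n = 3; limma, adjusted p = 0.11). Alas2, with opposite signs on the array types, averaged -0.10 ± 0.11 (SD, n = 3; limma, adjusted p = 0.421). For Cpox, Urod and Ppox the mean log2 ratios were -0.13, -0.08 and 0.07.

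The difference between array types was then tested itself. For Alas2 the oligonucleotide ratio exceeded the cDNA ratio by 1.55, 0.92 and 0.75 log2 units in pools 1, 2 and 3. The difference was above 0 in every pool and widest in pool 1. Its mean was 1.08 (95% interval 0.62 to 1.53), and it passed the test (limma, adjusted p = 0.0298), as did 11.4% of all genes, with 6.25% of all genes called in this direction. With the pool as a block, which the shared RNA calls for, it did not pass (limma, adjusted p = 0.135, 95% interval 0.46 to 1.69). In that fit 0 of 4702 genes were called. The call also ended without pool 1, at 0.84 (limma, adjusted p = 0.262), and without pool 2, at 1.15 (limma, adjusted p = 0.252).

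A ratio above 0 in every pool of the oligonucleotide arrays and below 0 in every pool of the cDNA arrays, as for Alas2 and Cpox, was seen for 6.23% of the 4702 genes. The mean ratio had opposite signs on the array types for 41.7% of them. Cpox differed by 0.44 (95% interval 0.16 to 0.72), which was not called (limma, adjusted p = 0.0607) but was without centring of the arrays (limma, adjusted p = 0.0456) and with arrays scaled to 1 spread (limma, adjusted p = 0.037). Urod differed by 0.20, Alad by 0.05 and Ppox by -0.19, with limma adjusted p of 0.245, 0.765 and 0.448. Alad was thus the member with the smallest difference between array types.

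**Figure D3:**
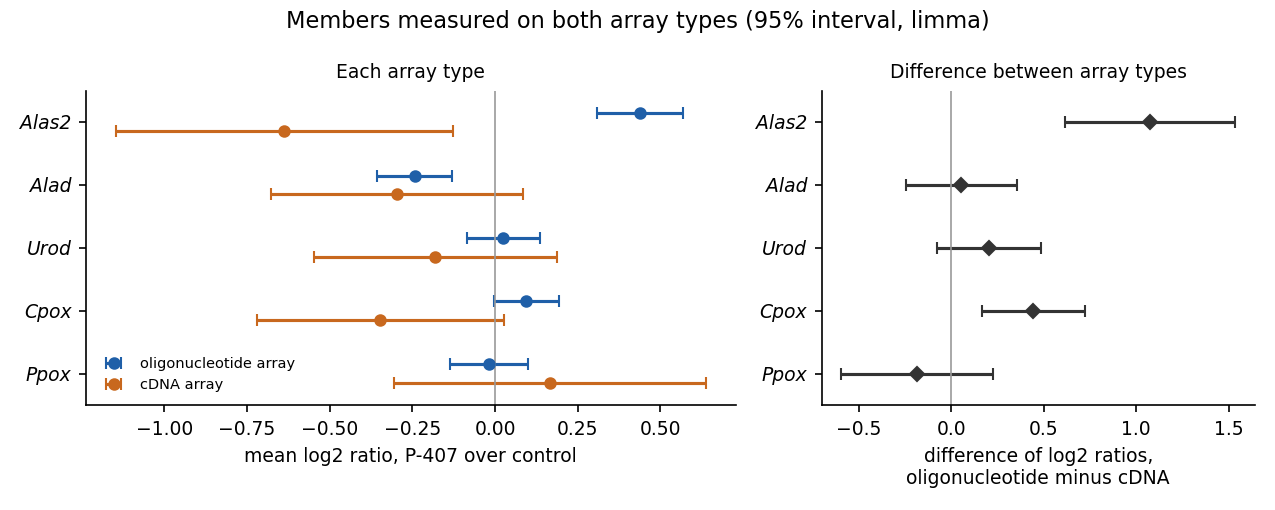
Mean log2 ratio of the 5 genes measured on both array types with the 95% limma interval (left; blue, oligonucleotide; orange, cDNA) and the difference of the array types with its interval (right). The intervals of Alas2 lie on opposite sides of 0, those of Alad overlap, and the cDNA intervals are the wider ones. Intervals on the right are from the fit without a pool block.

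The genes whose ratios ran most like those of Alas1 over the 3 oligonucleotide arrays, by root mean square difference, were Anks4b (0.0777), Hspa1a (0.0803), Folr2 (0.083), Cyp2a4 (0.0986) and Apoa5 (0.111). Hspa1a encodes an inducible heat shock protein, Folr2 a folate receptor of resident macrophages, Cyp2a4 a cytochrome P450 and Apoa5 an apolipoprotein that lowers blood triglyceride. Their mean log2 ratios lay between -1.03 for Folr2 and -0.91 for Apoa5. Over all 6 arrays Alas2 was nearest to Thbs2 (0.147), a matricellular protein, Tecpr1 (0.165), Abca1 (0.166), the cholesterol exporter, Pacs2 (0.180) and Ap1s1 (0.180).

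Genes around the pathway were read on the oligonucleotide array as lists, beside all genes, of which 22.0% were called higher and 21.4% lower, with a median of 0.0027. All of the calls named from here on but that of Gpnmb were lost without sharing of variance between genes. On the cDNA array, where 0.00% of all genes were called, no gene of any list was called, and the median of all genes was 0.0633.

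Of 16 genes that move heme or its precursors or help the enzymes mature, 3 rose and 2 fell, where 43.4% of all genes were called, with a median of 0.03. The median of 6 measured on the cDNA array was -0.16. Clpx, the chaperone that activates aminolevulinate synthase and, with its protease, degrades it, had log2 ratios of 1.51, 1.31 and 1.21. All pools were high, and the mean was 1.34 ± 0.15 (SD, n = 3; limma, adjusted p = 0.000244). The heme exporter Flvcr1 rose by 0.66 ± 0.20 and its relative Flvcr2 by 0.54 ± 0.22 (SD, n = 3; limma, adjusted p = 0.00201 and 0.00436). Slc25a38, which brings glycine into the mitochondrion, fell by 0.22 on the log2 scale (limma, adjusted p = 0.0085), and Tmem14c, needed to import porphyrin, was at -0.16 (limma, adjusted p = 0.0199). The 2 decreases became 0 without pool 1 and 1 without pool 2 or 3.

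Of 11 genes that supply glycine and succinyl-CoA, 4 fell and none rose, where 21.4% of all genes were called lower and 22.0% higher, with a median of -0.13. The median of 7 measured on the cDNA array was -0.21. Shmt2, the mitochondrial enzyme that makes glycine from serine, was lowest at -0.41 ± 0.04 (SD, n = 3; limma, adjusted p = 0.00139). On the cDNA array Shmt2 had 0.24, 1.27 and -0.49, of mixed sign with a mean above 0 (limma, adjusted p = 0.568). Shmt1, Gcsh and Dld were at -0.20, -0.15 and -0.14. Without pool 1 or pool 2 only 1 of the 11 was called, and without pool 3 it was 2.

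Of 11 genes of iron supply, 2 rose and 4 fell, where 22.0% of all genes were called higher and 21.4% lower, with a median of -0.04. The median of 6 measured on the cDNA array was -0.27. Hamp, the hormone hepcidin that blocks iron export, was at -1.08, -1.35 and -0.76, with a mean log2 ratio of -1.06 ± 0.29 (SD, n = 3; limma, adjusted p = 0.0013). Slc40a1, the iron exporter, rose by 0.33 and Slc11a2, an iron importer, by 0.32 (limma, adjusted p = 0.00516 and 0.00471). Slc11a2 had -1.32, -1.0 and 0.93 on the cDNA array (limma, adjusted p = 0.563), and its pools were of mixed sign. Ireb2, an iron-sensing regulator of translation, was at -0.51 (limma, adjusted p = 0.00126).

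Among 25 genes for regulators of Alas1 or of its protein, 4 rose and 13 fell, where 22.0% of all genes were called higher and 21.4% lower, with a median of -0.19. The median of 16 measured on the cDNA array was -0.56. The largest ratios were those of clock and early response genes: Dbp at -2.63 ± 0.37, Per2 at -1.60 ± 0.27, Egr1 at 2.11 ± 0.36 and Arntl at 0.78 ± 0.14 (SD, n = 3; limma, adjusted p = 0.00026, 0.00043, 0.000409 and 0.000714). The list holds genes that activate and genes that repress, so its median is not a direction of regulation. Nrf1, the factor of the site printed above, had 0.17, 0.33 and 0.52, a mean of 0.34 (limma, adjusted p = 0.0127), a call lost without pool 2. On the cDNA array its pools were at 1.05, 0.38 and -0.65, of mixed sign (limma, adjusted p = 0.651). Other regulators fell on the oligonucleotide array: Nr1i2, Ppara, Foxo1 and Nr1i3 were at -0.54, -0.53, -0.51 and -0.45 (limma, adjusted p = 0.00181, 0.00222, 0.00274 and 0.00278). Nr1i2 was of mixed sign on the cDNA array, with a mean of 0.07 (limma, adjusted p = 0.907), and Ppara was at -0.84 there (limma, adjusted p = 0.1). Nrf1 and these other regulators were chosen for naming after their values were seen.

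Of 21 hepatic proteins that carry heme, 2 rose and 8 fell, where 22.0% of all genes were called higher and 21.4% lower. The share called in either direction was near the background of 43.4%, but more of these genes fell than rose. The median was -0.15 here and, over 11 genes measured on the cDNA array, 0.07. The decreases were led by Cyp51, a cholesterol synthesis enzyme, at -1.16 ± 0.17, and Tdo2, a tryptophan-degrading enzyme, at -0.91 ± 0.13 (SD, n = 3; limma, adjusted p = 0.000414 and 0.000442). Cyc1, a subunit of the respiratory chain, and Cyp1a2, a drug-metabolising P450, were at -0.39 and -0.31. The 2 increases became 1 without pool 1.

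Of 8 genes that capture or break down heme, 5 rose and 1 fell, where 22.0% of all genes were called higher and 21.4% lower, with a median of 0.25. The median of 3 measured on the cDNA array was 0.48. Hmox1, the inducible enzyme that opens the heme ring, had 0.73, 0.58 and 0.51, a mean log2 ratio of 0.61 ± 0.11 (SD, n = 3; limma, adjusted p = 0.001). On the cDNA array it had 1.60, 1.56 and 1.21, again high in every pool, but it did not pass there (limma, adjusted p = 0.0984). Hpx and Hp, whose plasma proteins bind heme and hemoglobin, rose by 0.62 and 0.55 (limma, adjusted p = 0.00323 and 0.00291). Cd163, the macrophage receptor for hemoglobin bound to haptoglobin, was at -1.77 ± 0.13 (SD, n = 3; limma, adjusted p = 0.00011).

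**Figure D4:**
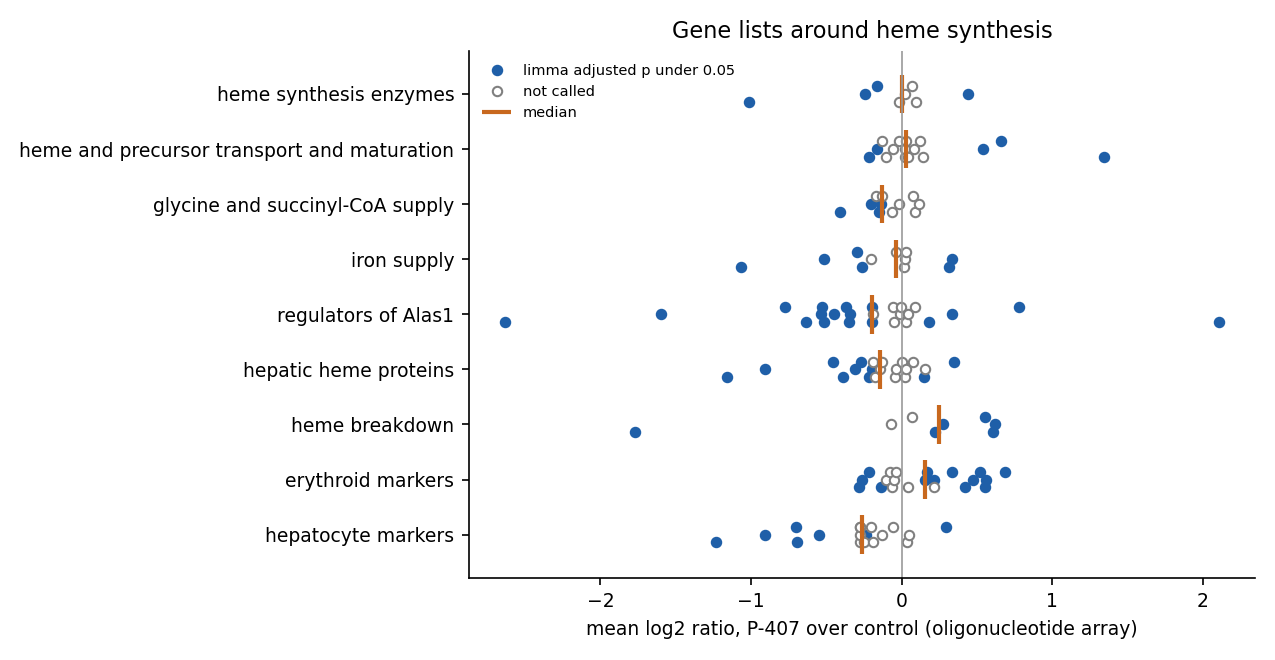
Mean log2 ratio on the oligonucleotide array of each gene of the heme synthesis enzymes and of 8 related lists; filled points passed limma's adjusted p threshold of 0.05, open points did not, and orange bars are list medians. The medians run from -0.26 for hepatocyte markers to 0.25 for heme breakdown, while single genes of the regulator list reach -2.63 and 2.11.

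Markers of red cells and their precursors were read beside Alas2. Of 21 measured, 10 rose and 4 fell, where 22.0% of all genes were called higher and 21.4% lower, with a median of 0.16. Rhd rose by 0.69, Tal1 by 0.55, Epor by 0.52 and Slc4a1 by 0.47 (limma, adjusted p = 0.000964, 0.00119, 0.000685 and 0.00121). The mean over the list was 0.20, 0.14 and 0.11 in pools 1, 2 and 3, highest in pool 1 as for Alas2. That order is not particular to red cell markers. Pool 1 was also highest for neutrophil markers, at 1.07, 0.82 and 0.67, and for macrophage markers, at 1.31, 1.075 and 1.18. It was not highest for stellate or cholangiocyte markers. On the cDNA array only 4 of the red cell genes were measured, with means of -0.56, -0.03 and 1.11, lowest in pool 1, and a median of -0.07. Tal1 had -2.54, -0.21 and 0.65 there (limma, adjusted p = 0.52), of mixed sign, and Epor had 0.51, 0.42 and 3.65 (limma, adjusted p = 0.258), all above 0.

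The globin gene Hbb-b2, among the most abundant of red cell RNAs, had log2 ratios of 0.80, 0.46 and 0.42 (limma, adjusted p = 0.00366). Hba-a1 had 0.71, 0.53 and 0.03 (limma, adjusted p = 0.0376), a call lost without pool 1 or pool 2. Both were highest in pool 1, and the embryonic globin Hbb-bh1 had 0.08, -0.12 and -0.12 (limma, adjusted p = 0.479). The 4 decreases were in Klf1, Nfe2, Sptb and Add2, with Klf1, the erythroid regulator, at -0.28 and Nfe2 at -0.26. Only 5 of the 21 rose without pool 1 and 6 without pool 2, and 2 fell without pool 1 or pool 3. The part of red cell RNA in the ratio of Alas2 was not tested.

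Hepatocytes make up most of the liver. Of 18 hepatocyte markers 1 rose and 6 fell, where 22.0% of all genes were called higher and 21.4% lower, with a median of -0.26. The median of 14 measured on the cDNA array was -0.09. The enzymes Tat and Tdo2, which degrade tyrosine and tryptophan, and Ass1 and Arg1 of urea synthesis were at -1.23, -0.91, -0.70 and -0.70 (limma, adjusted p = 0.000713, 0.000442, 0.000415 and 0.00038). The mean over the list was -0.31, -0.34 and -0.33 in pools 1, 2 and 3. By its mean Alas1 lay below all of the 18 markers but Tat. Of the 18, Alb, Ahsg, Serpina1d and Fgb carried the same ratio on each array, -0.05, -0.21 and -0.57, and are not independent readings. Apoa2 was close to them, at -0.05, -0.17 and -0.53. The median of -0.26 falls between Apoa2 and this group and so rests on these readings. On the cDNA array Alb, Fgb and Apoa2 were at -0.06, 0.14 and 0.20. The decreases on the oligonucleotide array were 9 without pool 1, and the increase, in Fga, was lost without pool 1 or pool 3.

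Macrophage markers rose in 11 of 16 and fell in 4, with a median of 1.43, where 22.0% of all genes were called higher and 21.4% lower. Those of smallest p were Gpnmb at 4.63, Trem2 at 4.31, Clec7a at 2.66 and Cd68 at 1.61. The 4 that fell, markers of resident macrophages, were Cd163 at -1.77, Marco at -1.24, Folr2 at -1.03 and Vsig4 at -0.17. Resident macrophage markers did not fall as a class: Clec4f and Cd5l, also of these cells, rose by 0.33 and 1.48 (limma, adjusted p = 0.00287 and 0.000244). Marco was at -0.81 without pool 2 and lost its call under limma's robust setting, and Vsig4 lost its call without pool 1 or pool 2. Neutrophil markers rose in 7 of 7 with a median of 0.53, and S100a9 was at 2.0, S100a8 at 1.33, Camp at 0.94 and Mpo at 0.53. Stellate cell markers rose in 6 of 6 with a median of 0.53, in 4 of 6 without pool 2, and Col3a1 was at 0.85, Pdgfrb at 0.56, Dcn at 0.54 and Col1a1 at 0.31. Of 7 endothelial markers, only Cdh5 was called, at -0.17, and it was lost without any 1 pool. Of 4 cholangiocyte markers only Sox9 was called, at 0.27. Medians on the cDNA array were 1.345 for 8 macrophage, 0.997 for 4 neutrophil and 0.325 for 4 stellate markers. They were 0.13 for 3 endothelial and 0.17 for 2 cholangiocyte markers. There 2 of the 4 stellate markers had a mean below 0 and 2 above it, with Dcn at -0.04. All 4 neutrophil means were above 0 there, but Mpo, at 0.03, was of mixed sign. How far such shifts in the cells of the liver enter the ratios of Alas1 and Alas2 was not tested.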

How the data were processed

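Per the labels' protocols, RNA of 3 treated pools and 1 control pool was split over 2-colour Agilent oligonucleotide and cDNA arrays. The authors deposited normalized log ratios, 1 for each feature of an array, read here as log2 ratios. The labels do not name their log base, centring, direction or normalization. Titles and dyes in the labels set the direction, treated to control. A natural log would make every fold larger. Values of exactly 0 were treated as missing. The median of an array's non-zero values was subtracted from it. It was 0.007, 0.006 and 0.009 on the oligonucleotide and -0.07, -0.09 and -0.02 on the cDNA arrays. Features naming 1 gene (18658 of 22575, and 7410 of 13482) with a value on all 3 arrays were averaged per gene. No feature carries a detection call.

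limma 3.58.1 in R 4.3.3 (lmFit, eBayes) tested the mean ratio of each array type, and of both averaged per pool, against 0, with Benjamini-Hochberg adjustment over all genes of a fit and a threshold of 0.05. The difference between array types was fitted over 6 arrays, with the pool as a block as an alternative. Pools pair the arrays because each RNA was split. The deviations of same-numbered arrays from their type's mean correlated only weakly, at 0.06, 0.07 and 0.07 over 4702 genes. Those of every other pair were below 0, but a gene's deviations sum to 0, so this is no separate evidence. The fits were tested on simulated data with 200 genes shifted. The cDNA fit called 0% of genes shifted by 0.25, -0.5 or 1.0 log2 units and 42% of those shifted by -2.0. The oligonucleotide fit called 6%, 66%, 92% and 96% for the same 4 shifts. A gene not called on the cDNA array may thus still have changed. The 200 shifted genes stood among 16871 in the oligonucleotide fit and among 5011 in the cDNA fit. In the deposited data 43.4% of genes were called on the oligonucleotide array. The share called when more genes are shifted was not tested, so the rates above hold for 200 shifted genes only.

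All 8 members are named, with the 4 called genes of smallest p in each list and the 5 nearest genes by root mean square difference. Other list members named with values were added after their values were seen. The members and the 14 lists (192 entries, 190 matched by symbol, 1 by synonym and 1 not) were chosen with earlier results of these data known. Promoter sequences, of 27025 genes, and gene positions are RefSeq's, of GRCm38.p6; the arrays' own probe sequences were not used here.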

Additional observations from a re-analysis of the deposited data

Results flagged for a closer look

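Alas2 differed between array types by 1.08 on the log2 scale, and every oligonucleotide array had it above 0 while every cDNA array had it below 0. The difference itself passed limma's test without a pool block (adjusted p = 0.0298), where 11.4% of all genes passed. It did not pass with the block (limma, adjusted p = 0.135), where 0 of 4702 genes did. The array types differ in probe, in labelling and in RNA amount, and their parts in the difference were not tested.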

How the results depend on the processing

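The direction of Alas1, Alas2, Alad and Fech on the oligonucleotide array, and of Alas1 minus Alas2, was kept under all 11 alternatives run for each. Only no centring, scaling and leaving out a pool moved these ratios. The other alternatives returned the main values and so do not test a direction. Alas1 ranged from -1.05 to -0.97, Alas2 from 0.38 to 0.47 and their difference from -1.52 to -1.35. Calls among the 8 genes fell from 4 to 0 without sharing of variance, and were 3 without any 1 pool, where Fech was lost. Ppox turned to 0.029 without pool 1 and Urod to -0.014 without pool 2 (leaving out 1 pool gave -0.0505 to 0.0289 and -0.014 to 0.0449), neither of them called at any setting.

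Between array types, 1 member was called. With the pool as a block (the paired analysis) it was 0, and it was 0 without sharing of variance. It was 2 without centring and with arrays scaled to 1 spread, both times adding Cpox, and 2 with values of 0 kept, which adds Alas1 through its zeros on the cDNA array. Leaving out 1 pool gave 0 to 1. The block changed no other member's call.

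Over all genes, limma's 7318 oligonucleotide calls became 40 without sharing of variance and 4025 without pool 1. On the cDNA array 0 became 1 without sharing. The 240 calls of both types averaged became 0 with zeros kept, without sharing, and without pool 1 or 2, 546 with scaling and 373 without pool 3. The 537 calls between types became 299 with zeros kept, 831 with scaling, 1077 without pool 3, and 0 with the block and without pool 1 or 2. The erythroid list's 4 decreases were 2 without centring. No intensity is in the files, so what signal limits is unknown, and the 3 pools set the precision.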
